A study of Drosophila melanogaster with 2 samples.

Results

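Sox102F-GFP had 440 chromatin immunoprecipitation summits in the Drosophila melanogaster genome that lay outside every annotated gene body and over 5 kb from the nearest annotated transcript start, of 7055 summits in all. They were selected by position alone, from the authors' optimal peak list on genome build dm6. The summit of a peak is its deposited point of highest signal, and transposable elements did not count as genes. The 440 distal intergenic summits made up 6.24% of the list (95% Wilson interval over regions 5.70% to 6.83%). The assay was ChIP-seq, in which DNA bound to a protein is recovered with an antibody and sequenced. Both samples were whole white prepupae, males and females pooled, of 1 transgenic line that carries Sox102F with GFP at its C terminus. Recovery used an antibody to GFP per the samples' description, although the antibody label names Sox102F, and no untagged line or input was analysed here. The 2 samples, biological replicates 1 and 4, form 1 group, so spread is shown by setting the value of each replicate beside the optimal one, and nothing states whether they came from separate collections.

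Sox102F is the fly's SoxD protein. SOX proteins bind the minor groove of DNA through a high-mobility-group domain and bend it, and their core recognition word is ACAAT or a longer form of it. Enhancers, the sequences that switch genes on in particular cells, can lie far from the gene they act on, often in the long gene-poor stretches around developmental regulators. The white prepupa marks the start of metamorphosis, when the steroid ecdysone rises and the imaginal discs, the larval precursors of wings, legs and eyes, begin to evert.

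The sequences around the strongest distal intergenic summits show what the regions are made of. The 10 strongest, leaving out 1 arm that is named below, are given in order of signal, as 121 bp of the plus strand of the release 6 genome sequence (dm6) with the summit at the centre. Each carries the names of its flanking protein-coding genes. Capitals mark ACAAT or its reverse complement ATTGT.
hid to CG7320, chr3L:18190628-18190748: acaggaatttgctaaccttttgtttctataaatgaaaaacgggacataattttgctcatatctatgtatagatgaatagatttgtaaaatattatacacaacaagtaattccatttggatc
NijA to CG43245, chr3L:10760184-10760304: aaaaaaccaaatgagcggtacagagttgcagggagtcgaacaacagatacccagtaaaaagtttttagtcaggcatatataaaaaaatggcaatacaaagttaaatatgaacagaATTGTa
spel1 to ppk, chr2L:14370069-14370189: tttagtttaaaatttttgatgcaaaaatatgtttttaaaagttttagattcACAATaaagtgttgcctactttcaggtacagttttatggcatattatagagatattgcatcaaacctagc
CG43336 to pxb, chr3R:15651919-15652039: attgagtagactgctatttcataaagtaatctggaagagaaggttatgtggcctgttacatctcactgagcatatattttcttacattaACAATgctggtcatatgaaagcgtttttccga
Pex7 to hry, chr3L:8656840-8656960: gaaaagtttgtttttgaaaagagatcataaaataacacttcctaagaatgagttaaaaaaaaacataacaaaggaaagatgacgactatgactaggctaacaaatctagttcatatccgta
Tollo to Best4, chr3L:15260699-15260819: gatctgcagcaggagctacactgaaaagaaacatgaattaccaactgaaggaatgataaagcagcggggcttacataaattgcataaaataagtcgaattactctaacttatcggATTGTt
Pgant2 to CG2772, chr2L:3437135-3437255: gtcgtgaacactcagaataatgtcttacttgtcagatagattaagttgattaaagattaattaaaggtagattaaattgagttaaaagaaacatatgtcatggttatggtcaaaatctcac
hng3 to CG13898, chr3L:762482-762602: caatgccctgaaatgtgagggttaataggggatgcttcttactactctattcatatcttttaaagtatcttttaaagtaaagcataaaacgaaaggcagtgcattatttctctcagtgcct
CG13896 to hng3, chr3L:724588-724708: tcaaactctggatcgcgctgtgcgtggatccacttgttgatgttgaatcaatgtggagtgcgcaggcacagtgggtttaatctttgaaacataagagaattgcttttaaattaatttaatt
NijA to CG43245, chr3L:10760388-10760508: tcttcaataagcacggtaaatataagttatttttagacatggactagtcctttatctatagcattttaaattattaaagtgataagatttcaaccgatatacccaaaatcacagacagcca
Of these 10 regions, 4 held 1 copy of the core word and 6 held none. Adenine and thymine made up between 61.2% of the letters, between CG13896 and hng3, and 73.6%, between spel1 and ppk.

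Of the distal intergenic summits, 47 held the longer word AACAAT, or its reverse complement ATTGTT, within 50 bp. The strongest of them outside that arm was the summit between CG43336 and pxb printed with the 10 strongest. The next 3 are given with 50 bp to each side of the summit, on the plus strand of dm6 as well, with AACAAT or ATTGTT in capitals, since they show the word at different places relative to the central summit base.
CG7320 to CheA75a, chr3L:18215813-18215913: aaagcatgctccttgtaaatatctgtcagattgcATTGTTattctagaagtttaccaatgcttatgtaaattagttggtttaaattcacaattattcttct
CG6163 to CG11726, chr3L:11389359-11389459: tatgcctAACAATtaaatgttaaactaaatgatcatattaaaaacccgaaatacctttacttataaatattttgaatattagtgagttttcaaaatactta
CG13300 to CG42747, chr3L:6363733-6363833: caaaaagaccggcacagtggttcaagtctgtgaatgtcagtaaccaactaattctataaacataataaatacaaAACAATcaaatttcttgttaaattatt
The signal of the summit between CG7320 and CheA75a was 307, with 132 in replicate 1 and 171 in replicate 4. The signal of the summit between CG6163 and CG11726 was 269, with 159 in replicate 1 and 109.6 in replicate 4. The signal of the summit between CG13300 and CG42747 was 219, with 109.6 in replicate 1 and 113 in replicate 4. The replicates ranked the first pair of these regions in opposite order.

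The signal of a peak is the authors' value for it and ranks peaks within 1 list. Distal intergenic summits had a median signal of 122 (quartiles 93.6 and 194), from 76.7 to 1793, and all 7055 summits had a median of 135. The 634 intergenic summits 1 to 5 kb from a start had a median of 127. The 1162 summits inside a gene body and over 5 kb from a start had 124, and the 2571 summits within 500 bp of a start had 146. The distal intergenic median was the lowest of the 4 classes, though within 5 of those of the other classes away from starts. To give the spread, the same rule was run on the 7055 strongest entries of each replicate's list. It found 401 distal intergenic summits in replicate 1, with a median signal of 65.7 beside 73.0 for all, and 455 in replicate 4, with 62.4 beside 70.0. The distal class was below the whole list in both replicates. Of the distal intergenic summits, 21 (4.77%, 3.14% to 7.19%) were in the strongest 10% of the optimal list, and in the replicates 19 (4.74%) and 25 (5.49%) were. Among summits within 500 bp of a start, 13.7% were. Because whole animals were used, a strong signal in few cells and a weak one in many cannot be told apart.

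The 440 summits recurred in the replicates about as often as the list as a whole. The optimal list is named as thresholded by IDR, the irreproducible discovery rate, which keeps peaks by how well their ranks repeat. Recurrence may thus be in part a condition of entry to the list, for the 440 as for all its summits. A summit among the 7055 strongest of both replicates lay within 100 bp of 302 of them (68.6%, 64.2% to 72.8%), beside 67.9% of all optimal summits. Replicate 1 had one at 352 (80.0%) and replicate 4 at 381 (86.6%), and neither had one at 9. In the full replicate lists of 30000 entries, 411 of the 440 had an entry in both, 17 had none in replicate 1 and 12 had none in replicate 4. Over these 411, the Spearman correlation of the replicates' signals was 0.72, as a description, since the summits share libraries. The median ratio of replicate 4 to replicate 1 was 1.07, and 231 of 411 were higher in replicate 4.

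**Figure D1:**
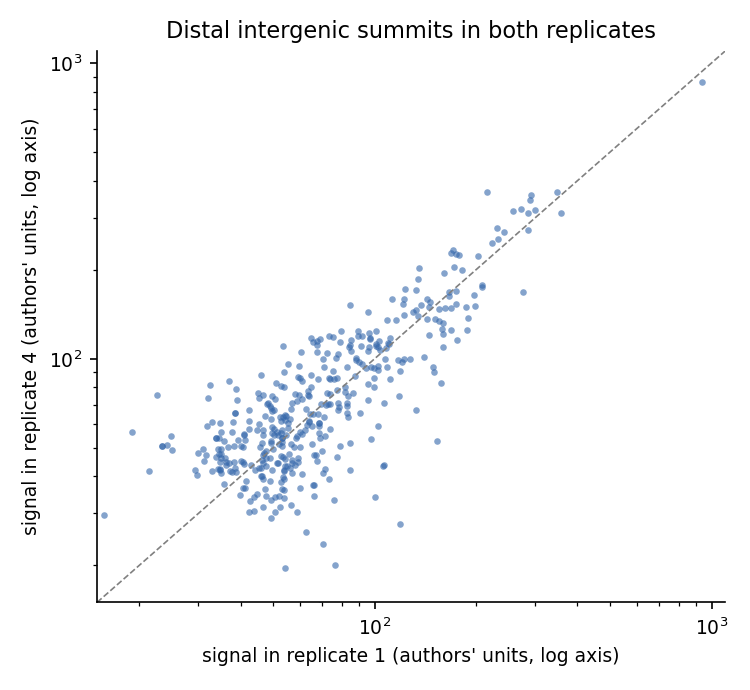
Signal of each distal intergenic summit with an entry in both replicates (411 points), replicate 1 on the horizontal and replicate 4 on the vertical axis, both log axes in the authors' units; the dashed line marks equal values. The points follow the line, with wider scatter below a signal of 100, and the summit between Su(z)2 and CG13323 stands alone at 939 and 865.

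The strongest distal intergenic summit lay between Su(z)2, a Polycomb group gene, and CG13323. Its signal was 1793, with 939 in replicate 1 and 865 in replicate 4, and it ranked 15 in the whole list. The nearest start was that of CG13323, at 11911 bp. It stood above every other distal intergenic summit in the optimal list and in both replicates. It lies on 2R, as do the summits between fj and Ote and between CG13334 and CG42807 given next, and no sequence from that arm is shown.

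The next summits lay beside genes of several kinds. One was 5047 bp upstream of the start of hid, which encodes an inducer of cell death, with a signal of 720.4, 349 in replicate 1 and 365 in replicate 4. The summit between fj, which encodes a Golgi kinase of planar cell polarity, and Ote, which encodes a nuclear envelope protein, had 652, with 290.4 and 357 in replicates 1 and 4. The summit between spel1, a mismatch repair gene, and ppk, which encodes a sodium channel subunit of sensory neurons, had 631, with 288 and 344. In these 3 regions replicate 4 was the higher. The summit between CG13334 and CG42807 had 615, with 298 and 319 in replicates 1 and 4. The summit between CG43336 and pxb had 597, with 271 and 320.4. The summit between Pex7, which encodes a peroxisomal import receptor, and hry, the hairy gene that encodes a transcriptional repressor of bristle patterning and segmentation, had 593, with 216 and 367. It was the least even of the 3 between replicates.

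The summit between Tollo, which encodes a Toll-family receptor, and Best4, of the bestrophin channel family, had a signal of 581, with 284 in replicate 1 and 312 in replicate 4, and the nearest start was 25140 bp away. The summit between Pgant2, which encodes an enzyme that begins O-linked glycosylation, and CG2772 had 574, with 258 and 315. Another 2 among the 20 strongest lay between CG18404 and heca, the headcase gene, at 503 and 421. Replicates 1 and 4 gave 232 and 278 for the first of these and 203 and 223 for the other. Both were higher in replicate 4.

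Near lncRNA genes, the summit between CG11550 and CG42693 had 479.9 (233 in replicate 1 and 254 in replicate 4). The summit between Osi21, of the Osiris family, and CG14926 had 471, with 224 and 245 in replicates 1 and 4. The weakest of the 20 lay between CG8635 and ptc, the receptor of Hedgehog, at 408, with 171 and 233. It held AACAAT within 50 bp, as did the summit between CG43336 and pxb and no other of the 20. The remaining 6 of the 20 lay in the 3 stretches on 3L described next.

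Distal intergenic summits were spread unevenly over intergenic sequence. An intergenic stretch is taken here as the sequence between neighbouring protein-coding genes, and 1248 stretches held sequence that meets the position rule. Of these, 195 (15.6%) held at least 1 distal intergenic summit, and 168 held 1 in the optimal list and in both replicates. A single summit was found in 98 stretches, 2 to 4 in 78, and 5 or more in 19, which together held 128 summits. The 5 fullest stretches held 50 summits (11.4%), with the last place shared, since 3 stretches had 7 and the one between AOX4 and CG43335 (5 and 8 in the replicates) is not among the 5 for its weaker strongest summit. Stretches with a summit had a median length of 27790 bp, beside 14451 bp for those without. The median gap from a distal intergenic summit to the next summit of any class was 2560.5 bp, and 197 (44.8%) had one within 2 kb. Over all optimal summits the median gap was 1955 bp and 50.6% had one within 2 kb. The distal class was thus no more crowded than the whole list. Since 40 summits lay within 500 bp of another, neighbouring summits are not independent regions.

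The fullest stretch lay between NijA, which encodes a ninjurin, an adhesion protein of the cell surface, and CG43245 (chr3L:10696878-10771924, dm6). It has no annotated gene inside. It held 18 distal intergenic summits, 16 by replicate 1 and 17 by replicate 4. Its strongest summit had a signal of 665, with 358 and 312 in replicates 1 and 4. A second summit in the same peak interval, 204 bp away, had 538 in the optimal list, with 176 and 116. That optimal value was further above its replicate values than for its neighbour. The summit 31863 bp from the start of CG43245 had 511, with 241 and 269, and the summits on either side of it, 690 and 925 bp away, had 102 and 104. The 18 fell in 2 groups, one between 7794 and 19648 bp from NijA and the other between 40645 and 63571 bp from it.

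**Figure D2:**
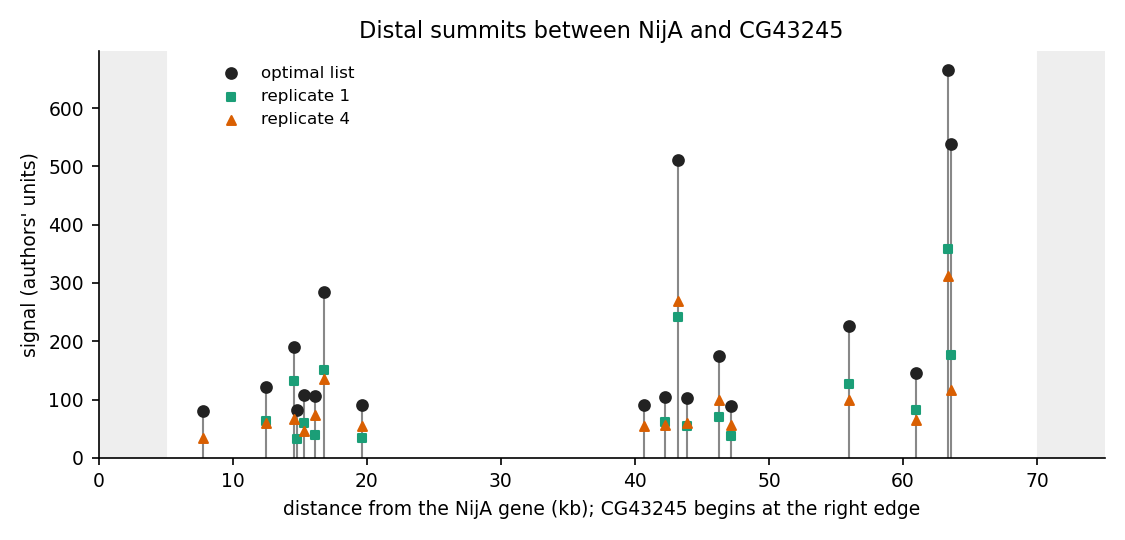
Distal intergenic summits between NijA and CG43245 by distance from NijA (horizontal, kb), with signal in the authors' units (vertical); black circles are the optimal list, green squares replicate 1 and orange triangles replicate 4, and grey bands lie within 5 kb of an edge of the stretch. The summits stand in 2 groups with an empty interval between them, and the summits at 511, 538 and 665 are in the group nearer CG43245.

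Stretches on either side of hng3 on 3L were next. Between hng3 and CG13898 lay 10 distal intergenic summits, and 10 in each replicate's list, around 2 isoleucine tRNA genes. The strongest had a signal of 544, with 285 in replicate 1 and 273 in replicate 4. Another had 444, with 276 and 168, and replicate 1 was the higher there. Between CG13896 and hng3 lay 8, and the replicates' own lists had 7 and 6 there. Its strongest summit had 541 in the optimal list and 322 in replicate 4, and no entry within 100 bp in replicate 1. The stretch between plh and corto, the latter a gene for a chromatin protein, held 7, against 4 for replicate 1 and 8 for replicate 4. Its strongest summit had 346, with 135 and 203. The stretch between mab-21 and rux, which encodes an inhibitor of cyclin A kinase, held 7 on the X, with 7 in each replicate. Its strongest summit had 325, with 134 and 186. The number in a stretch varied least between replicates for hng3 to CG13898 and mab-21 to rux, and most for plh to corto.

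The distance from a distal intergenic summit to the nearest start had a median of 8397 bp and ran from 5003 to 39287 bp. Its lower bound is set by the rule. The nearest start belonged to a protein-coding gene for 292 summits (66.4%), to a non-coding RNA gene for 141 and to a tRNA gene for 7. The nearest protein-coding gene turned its 5′ end towards 196 summits and its 3′ end towards 244.

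The farthest summits were among the weaker ones. The farthest, 39287 bp from the start of CG43335, lay between it and AOX4, an aldehyde oxidase gene, and another in that stretch lay 35865 bp from AOX4. Between bab1 and bab2, paired transcription factor genes of leg, ovary and abdomen patterning, a summit lay 37769 bp from the start of bab1. The remaining 2 of the 5 farthest lay between NijA and CG43245, at 34403 and 32788 bp. The 5 had signals of 108, 82.6, 99.2, 90.2 and 104 in the order of distance. Replicate 4 had 41.0 to 55.5 at them, and replicate 1 had 35.1 to 60.9 at the 4 where it had an entry.

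At the limit of the rule, the 5 summits just inside lay 5003 to 5081 bp from a start, and the 5 intergenic summits just outside lay 4944 to 4990 bp from one. Those inside had signals of 83.8, 95.5, 80.9, 720.4 and 177 in order of distance, the fourth being the summit upstream of hid. Those outside had 238, 93.8, 94.1, 100.2 and 85.1, going away from the limit. The ranges overlap, and no step stands at the limit apart from the hid summit.

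Density was counted over eligible sequence, the 20.1 Mb (15.01% of the arms) that meets the same position rule. It held 21.9 distal intergenic summits per Mb, with 19.9 in replicate 1 and 22.6 in replicate 4. From 5 to 7.5 kb from a start there were 166 summits, or 38.4 per Mb, and from 7.5 to 10 kb 128, or 44.9 per Mb. From 10 to 15 kb there were 83, or 25.3 per Mb, and from 15 to 20 kb 31, or 18.1 per Mb. Beyond 20 kb there were 32 in 7.94 Mb, or 4.03 per Mb. Replicate 1 had 35.2, 40.3, 23.4, 18.1 and 3.28 per Mb in these bands, and replicate 4 had 40.5, 46.0, 26.8, 14.6 and 4.54. The order of the bands was the same in both replicates, with the density highest at 7.5 to 10 kb and lowest beyond 20 kb. Transposable elements and unknown bases took 11.6% of the nearest band and 19.0% of the farthest. Without them the densities were 43.5 and 4.98 per Mb. The median signal was 128 and 134 in the nearest bands, 125 from 10 to 15 kb, 109 from 15 to 20 kb and 103 beyond 20 kb. Only 1 of the 440 summits lay in an annotated transposable element.

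The arms fell in 2 groups. Their densities, and those by orientation and gene list below, were not matched for distance from a start. Density was 28.6 per Mb on 2L (89 summits; 26.95 and 28.2 in replicates 1 and 4) and 28.1 on 3L (157 summits; 24.7 and 29.4). It was 25.7 on 3R (97 summits; 23.8 and 28.3). It was 13.5 on 2R (62 summits; 12.02 and 12.9) and 11.98 on X (35 summits; 11.6 and 12.3). Each of 2L, 3L and 3R was above each of 2R and X in both replicates. On X 2.65% of summits were distal intergenic and on 3L 10.03%, although X had 56.1 summits of any class per Mb of arm, beside 55.7 on 3L. In replicate 1 X had 56.3 and 3L 54.5 of these per Mb, and in replicate 4 X had 54.1 and 3L 56.8. Leaving transposable elements and unknown bases out of the denominator gave 14.0 on X, 16.8 on 2R and between 27.9 and 33.6 on the other large arms. Chromosome 4, on which Sox102F lies, had none in the optimal list or in replicate 1 and 1 in replicate 4. Its eligible sequence was 0.126 Mb.

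**Figure D3:**
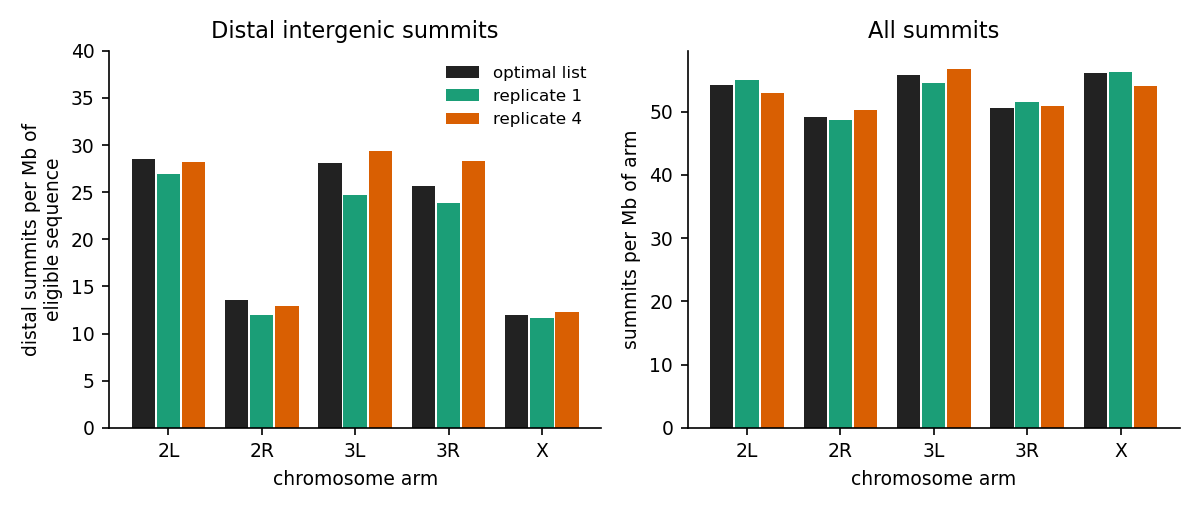
Distal intergenic summits per Mb of eligible sequence (left) and all summits per Mb of arm (right) on the 5 large arms; black bars are the optimal list, green replicate 1 and orange replicate 4. In the left panel 2R and X stand at 13.5 and 11.98 in the optimal list, below 2L, 3L and 3R, and in the right panel the arms are close together, between 48.6 and 56.8 over the 3 lists.

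Stretches in which both flanking genes turn their 5′ ends inwards held 30.7 distal intergenic summits per Mb of eligible sequence, with 26.9 in replicate 1 and 31.0 in replicate 4. Those with 1 end of each kind held 22.9, with 20.7 and 24.0. Those with both 3′ ends inwards held 21.1, with 20.3 and 21.7. The first kind was the highest in both replicates. The stretch between NijA and CG43245 alone gave 18 of its 113 summits, and 16 of 99 and 17 of 114 in replicates 1 and 4. The other kinds kept their order in both replicates. The replicate values with 1 end of each kind, 20.7 and 24.0, lay on either side of the 21.1 with both 3′ ends. Arm ends held none in 1.75 Mb.

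Genes beside the distal intergenic summits were described against genes that could flank one. Of 13945 protein-coding genes, 2068 lay beside eligible sequence, and 357 of these (17.3%) flanked a distal intergenic summit, with 345 in replicate 1 and 352 in replicate 4. The median length of eligible sequence beside a gene was 6.82 kb. It differed between lists, with 25.5 kb for EGFR and FGF, 11.7 kb for T-box and 9.09 kb for Wnt genes. Shares of genes are thus not matched for the sequence beside them. The lists below share genes, and both genes of a stretch are counted for the same summit, so counts of genes are not independent. A flanking gene need not be the gene a region acts on. Distance to it also varies widely: the strongest summit lay 110 bp from the 3′ end of Zasp52 and 106745 bp from that of Or67d. The lists are partial, so a count holds for the listed genes and not for every gene of its kind. Genes given below as outside a list were named after their values were seen.

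Imaginal disc patterning regulators flanked distal intergenic summits at 25 of 39 genes beside eligible sequence, with 26 in replicate 1 and 24 in replicate 4. Their stretches held 63 summits, or 86.6 per Mb of eligible sequence, beside 21.9 for all. The replicates gave 58 and 60 summits. These genes lie beside more eligible sequence, with a median of 13.9 kb. The median signal of their 63 summits, 122, was that of the class. By strongest summit the leading genes were ptc at 408, dpp, a BMP-type ligand, at 342 (166 in replicate 1 and 169 in replicate 4), and eyg and toe, neighbouring Pax genes, which share a summit at 295 (137 and 152). The genes with the most summits were hth, a homeobox partner of Hox proteins, with 7 in 70.3 kb, and en, the posterior compartment gene, with 6 in 57.5 kb.

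Signalling pathways differed in their counts. Of Wnt ligands, receptors and feedback genes, 6 of 9 flanked 11 distal intergenic summits in all, 149 per Mb, with 10 in replicate 1 and 11 in replicate 4. Wnt4, wg, Wnt6 and Wnt10 lie in a row on 2L and are not separate loci. The stretches between them held 2, 3 and 2 of these summits. Wnt6 and Wnt10, neighbouring ligand genes, share the strongest, at 404 (178 and 224). The next was near dally, which encodes a glypican that binds Wingless and Dpp, at 283 (123 and 172), and then wg, the Wingless ligand gene, with 5 summits, the strongest at 266 (122 and 141). Of Dpp, activin and Hedgehog pathway genes, 3 of 9 flanked a distal intergenic summit, and these were ptc, dpp and hh, all members of the disc list too. They held 10 summits, or 382 per Mb of only 0.026 Mb, with 11 in each replicate. The strongest summit beside hh, the Hedgehog ligand gene, had 233 (158 and 82.7). Of EGFR and FGF pathway genes, 5 of 7 flanked 14 summits, 75.7 per Mb, with 11 in replicate 1 and 14 in replicate 4. The highest signal lay beside sty, which encodes the receptor signalling inhibitor Sprouty, at 384 (181 and 199), and then beside kek1, an EGFR inhibitor gene, at 152, which had 51.8 in replicate 4 and no entry in replicate 1. Next came vn, an EGFR ligand gene, at 137 (59.0 and 71.7), and ths, an FGF gene, at 119.9 (56.2 and 62.5). Of Notch pathway and E(spl) genes, 2 of 8 flanked one, Ser, which encodes a Notch ligand, at 232 (110.0 and 112) and numb, an inhibitor of Notch, at 79.3 (29.9 and 48.0). By the replicates' own lists, 1 of the 8 did in replicate 1 and 2 in replicate 4. Delta, the other Notch ligand gene, was listed under an older symbol that the annotation lacks; it flanked 1, at 84.0 (52.5 and 31.6), which makes 3 of 9. None of 4 JAK-STAT, JNK and insulin signal genes did, in only 0.026 Mb of eligible sequence.

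Transcription factor families varied. Of T-box genes, 4 of 6 flanked 11 summits, 120.5 per Mb, with 11 in replicate 1 and 10 in replicate 4. These genes are neighbouring pairs, H15 with mid and Doc2 with Doc1, and not separate loci. The highest signal lay beside mid at 301 (146 and 156), Doc1 and Doc2 share one at 201 (111 and 85.2), and the strongest beside H15 had 163 (102 and 59.2). Of nuclear receptor and ecdysone response genes, 5 of 9 flanked 17 summits, 97.7 per Mb, with 15 and 18 in the replicates. Eip93F, which encodes the ecdysone-induced factor E93 of late metamorphosis, flanked 6, the strongest at 352, with 196 in replicate 4 and no entry in replicate 1. Then came tll, an orphan receptor gene, at 222 (96.2 and 122), knrl at 177 (65.7 and 114) and kni at 125 (56.8 and 70.6). Under current symbols the count is 6 of 10, with Ldh, a lactate dehydrogenase gene, added for 2 summits, the strongest at 135 (46.2 and 87.8). Of eye and retinal regulators, 4 of 8 flanked one, led by the Runx gene lz at 295 (159 and 132), oc at 194 (97.9 and 93.8), sens at 93.1 (48.8 and 46.3) and Optix at 76.7 (34.8 and 41.9), the weakest of all 440. By the replicates' own lists, 3 of the 8 did in replicate 1 and 4 in replicate 4.

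Counts for the remaining factor lists follow. Of proneural and neuroblast regulators, 4 of 14 flanked 6 summits, 12.6 per Mb, with 5 and 6 in the replicates. They were tll, esg at 118 (54.6 and 64.0), pros at 113 (66.8 and 47.1) and hb at 81.3 (40.9 and 44.2). Of the other homeobox genes listed, 4 of 25 flanked 11, among them the POU gene vvl with 7 summits, the strongest at 215 (97.0 and 117), then unc-4 at 187 (90.1 and 97.8), lbe at 145 (77.9 and 70.9) and Hmx at 89.9 (46.2 and 40.3). Dr, listed under an older symbol, flanked 2, the strongest at 305 (161 and 149), above those of the listed 4, which makes 5 of 27. Outside the list, pdm3 flanked 2, the strongest at 349.7 (199 and 151), exex 1 at 93.6 and Awh 1 at 96.0. Of Hox genes, 1 of 5 did, Antp, at 275 (121 and 153). Of Sox genes, 1 of 6 did, SoxN, at 191 (88.1 and 99.3). Fork head genes did at 2 of 9, croc at 90.0 (36.7 and 50.5) and fkh at 77.5 (39.9 and 34.7). By the replicates' own lists, 0 of the 9 did in replicate 1 and 1 in replicate 4. Of GATA factor genes and ush, grn alone of 3 did, at 93.6, with 60.6 in replicate 1 and no entry in replicate 4.

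Among genes of cell surfaces and tissues, axon guidance genes flanked a distal intergenic summit at 5 of 14, with 8 summits or 35.6 per Mb and 8 in each replicate. They were led by drl, a Wnt5 receptor gene, at 273 (112 and 159), dnt, a related receptor gene, at 134 (68.0 and 64.9), robo3, a Slit receptor gene, at 118 (49.2 and 68.2) and caps at 102 (53.1 and 53.9). The equal totals hide differences by gene. For drl there were 3 summits, with 4 in replicate 1 and 1 in replicate 4, and for trn 1, with 0 and 3. Outside the list, Drl-2, related to drl and dnt, flanked 1 at 110.1 (67.4 and 45.1), and comm, a regulator of Robo receptors, flanked 1 at 95.5 (56.3 and 32.0). Immunoglobulin and leucine-rich adhesion genes did at 5 of 43, with 12 summits in 1.16 Mb, or 10.4 per Mb, and 9 and 12 in the replicates. Tollo flanked 7, the strongest at 581, and 18w, another Toll-family gene, flanked 2, the strongest at 364 (197 and 164). Then came dpr17 at 194 (102 and 91.8) and hbs, a myoblast fusion receptor gene, at 106 (53.1 and 54.1). Muscle and heart genes did at 3 of 8, mid, H15 and the Z-disc gene Zasp52, which had 291 (169 and 125). Tracheal and salivary gland genes did at 3 of 6, vvl, trh at 98.0 (50.01 and 49.6) and fkh, but at 2 of 6 in each replicate's own list.

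Genes of differentiated functions varied. The listed ion channels and transmitter receptors flanked one at 1 of 23, the dopamine receptor gene Dop1R2, at 95.5 (47.5 and 48.8), although 3 did in replicate 1. The list leaves out the ppk family and several other channel genes. Of these, ppk and Best4 flanked the summits at 631 and 581 given above, ppk24 and pHCl-2 share 4, the strongest at 215 (89.0 and 124), and nompC flanked 3, the strongest at 134 (62.8 and 67.4). Neuropeptides and their receptors did at none of 10, cuticle protein genes at none of 12 and glial markers at none of 2, beside 17.3% of all genes. Their eligible sequence was only 0.091, 0.033 and 0.000386 Mb. At 21.9 summits per Mb for all genes, finding none in so little sequence says little. Ribosomal protein genes did at none of 9 in 0.417 Mb, with 1 of the ribosomal genes in replicate 4 alone. Chemosensory receptor genes did at 6 of 39, led by Gr93a and Gr93b, which share one at 395 (175 and 225), Or67d at 177 (64.9 and 118) and Or65a at 149 (60.2 and 86.1). Cytochrome P450 genes did at 3 of 10, Cyp6t1 at 205 (109 and 93.7), Cyp9b2 at 134 (52.9 and 80.7) and Cyp12e1 at 109 (49.2 and 62.4).

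**Figure D4:**
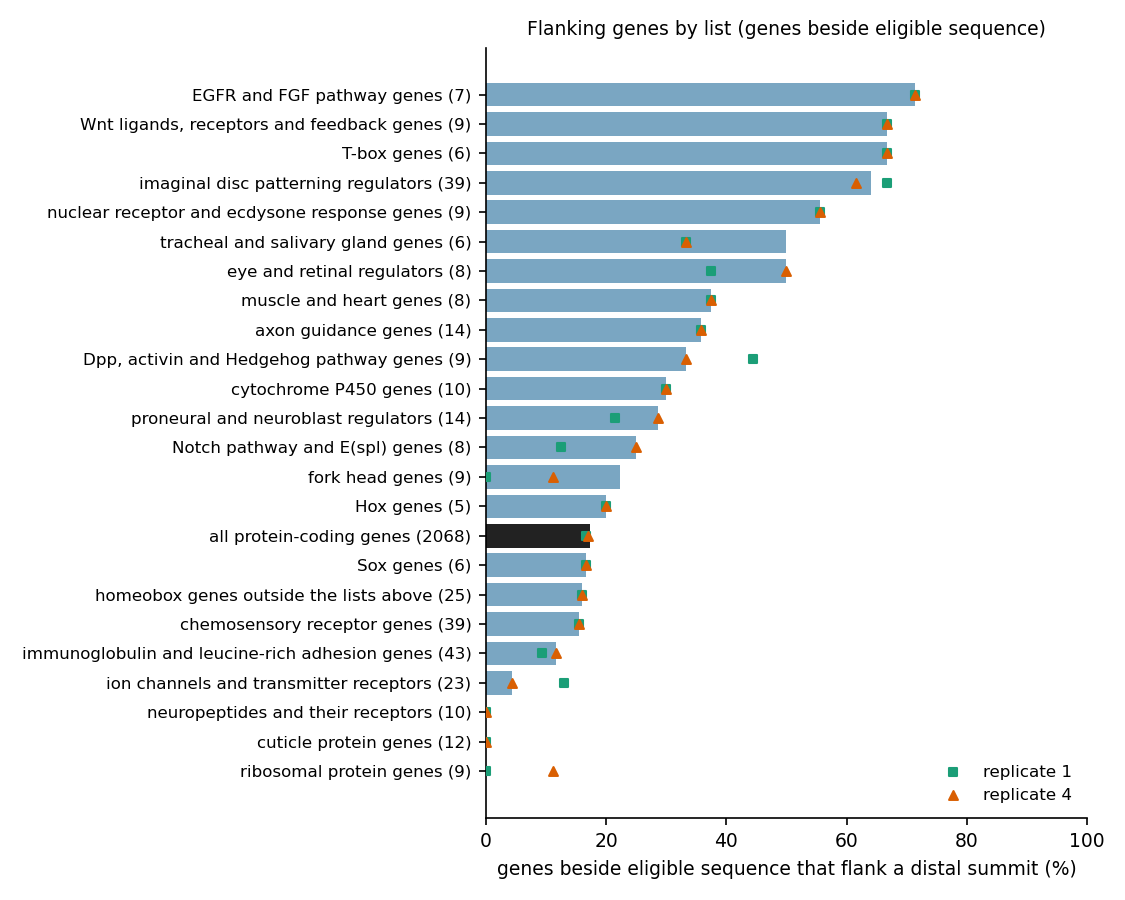
Share of the genes beside eligible sequence that flank a distal intergenic summit (horizontal, percent) for each list with 5 or more such genes (number in brackets) and for all protein-coding genes (black bar); bars are the optimal list, green squares replicate 1 and orange triangles replicate 4. EGFR and FGF, Wnt, T-box and disc patterning genes stand above 60% in both replicates, beside 17.3% for all genes. The median eligible sequence beside these genes was 25.5, 9.09, 11.7 and 13.9 kb in that order, beside 6.82 kb for all genes. Neuropeptide and cuticle protein genes stand at 0, with only 0.091 and 0.033 Mb of eligible sequence.

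Distal intergenic summits sat on short runs rich in adenine and thymine. Within 50 bp of the summit A+T made up 66.6% ± 8.64 (SD over 440 regions) of the letters, beside 55.6% ± 6.99 in equal windows placed 500 bp away on both sides, and 59.1% over eligible sequence. The summit window was the richer at 361 of 440 (82.0%). In the replicates it had 67.3% and 64.8%, beside 55.6% and 55.7% in the flanks. The excess over the flanks, 11.0 percentage points (11.7 in replicate 1 and 9.11 in replicate 4), was above 9.31 at intergenic summits 1 to 5 kb from a start, 8.36 inside gene bodies and 4.67 within 500 bp of a start. Its distance from the first of these was within the spread between replicates, and all 4 classes had an excess.

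**Figure D5:**
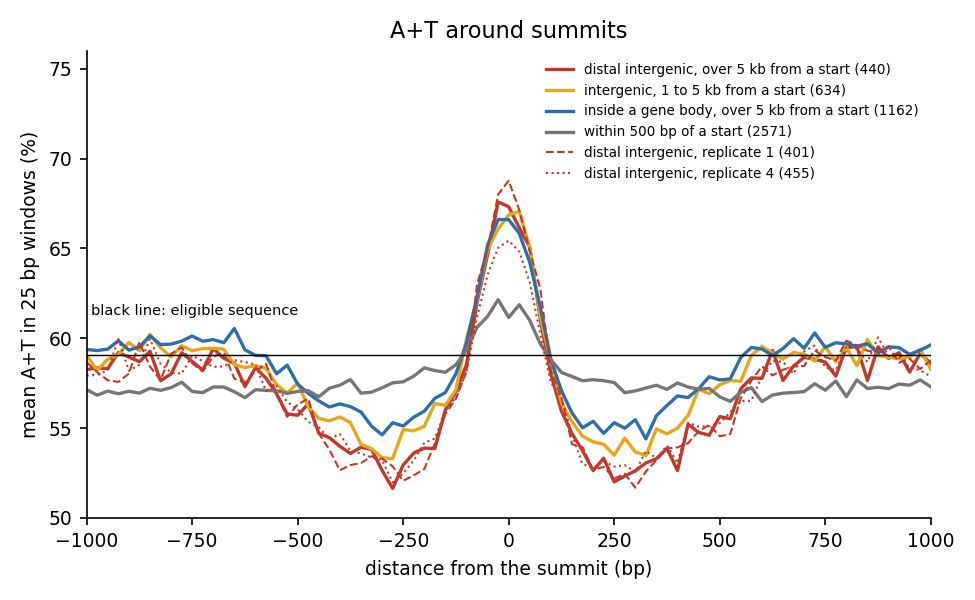
Mean A+T (vertical, percent, in windows of 25 bp) by distance from the summit (horizontal, bp) for distal intergenic summits (red; dashed replicate 1, dotted replicate 4), intergenic summits 1 to 5 kb from a start (yellow), summits inside a gene body over 5 kb from a start (blue) and summits within 500 bp of a start (grey); the black line is the mean of eligible sequence, 59.1%. The red curves peak at the summit and dip below the black line on both sides before they return to it.

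Words with the Sox core ACAAT were about as frequent at the distal intergenic summits of the optimal list as in eligible sequence. AACAAT lay within 50 bp at 47 (10.7%, Wilson interval over regions 8.13% to 13.9%), beside 45 and 36 of the windows 500 bp below and above, 12.7% of all optimal summits and 10.9% of windows tiled over eligible sequence. Replicate 1 had 53 of 401 (13.2%, flanks 40 and 41) and replicate 4 had 52 of 455 (11.4%, flanks 36 and 36). In both replicates the summit window had more than either flank, with intervals from 10.2% to 16.9% and from 8.82% to 14.7% that include the share of eligible sequence. ACAAT, which AACAAT contains, lay at 114 (25.9%), beside flanks of 116 and 102, 29% of all optimal summits and 26.6% of eligible windows. Replicate 1 had it at 120 of 401 (29.9%, flanks 104 and 94) and replicate 4 at 121 of 455 (26.6%, flanks 120 and 104). In the optimal list, intergenic summits 1 to 5 kb from a start had ACAAT at 33.9% (215, flanks 162 and 167). Summits inside a gene body over 5 kb from a start had it at 31.6% (367, flanks 284 and 292). Both classes were above either flank. Summits within 500 bp of a start, at 24.9% (640, flanks 644 and 634), were not above both. AACAAT lay at 14.5%, 13.2% and 11.4% in these classes, in that order. Differences between classes were not tested. AACAATG, which contains both ACAAT and AACAAT, lay at 11 distal intergenic summits (2.50%), with 11 and 10 in the flanks. Replicate 1 had it at 15, beside 8 and 12, and replicate 4 at 10, beside 7 and 10. The median signal was 129.9 with AACAAT and 121.6 without it in the optimal list, but 61.0 and 65.9 in replicate 1 and 56.9 and 63.6 in replicate 4, so the order differed between lists.

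Among the 19 words searched, on both strands, some were more frequent at the summit than in either flank. AACAAAG, a core shared by Sox and TCF factors, lay at 17 (3.86%), beside 5 and 11 in the flanks and 2.73% of eligible windows. In replicate 1 the summit had 16, beside 6 and 15 in the flanks, and in replicate 4 it had 18, beside 8 and 16. The summit was thus barely above the upper flank in both. Intergenic summits 1 to 5 kb from a start had AACAAAG at 4.26%, and those inside a gene body over 5 kb from a start at 4.04%. GATAAG, of GATA factors, lay at 31 (7.05%), beside 13 and 19 and 4.01% of eligible windows. Replicate 1 had 21 of it at the summit and 22 in the upper flank, so the excess was not seen in that list. AGGTCA, a word of nuclear receptors, lay at 14 (3.18%), beside 4 and 8 and 2.71% of eligible windows. In the replicates 15 and 13 had it, with at most 7 in a flank. A run of 8 A lay at 42 (9.55%), beside 25 and 24, and at 12.2% and 10.8% in the replicates. These are counts of letters in A+T-rich windows, and whether base composition alone gives them was not tested.

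CACACACA, CAGCTG and GAGAGAG were less frequent at the summit than in either flank of the optimal list. CACACACA lay at 5, beside 17 and 12 in the flanks, and at 3 and 4 in the replicates. CAGCTG, an E-box, lay at 10, beside 19 and 11. In replicate 4 it lay at 12, beside 20 and 10, which is not below both flanks. GAGAGAG, of the GAGA factor, lay at 2 (0.455%), and at 5.10% of summits within 500 bp of a start. In the flanks it lay at 6 and 7. The Zelda word CAGGTAG was found at 0 of 440, for which the interval reaches 0.866%, beside 3 and 0, and at 1 in each replicate. TAATTA, of homeodomains, lay at 44 (10%), beside 28 and 37, so above both flanks. Replicate 1 had it at 40, beside 32 and 31, but replicate 4 at 28, beside 23 and 31, which is not above both. TGANTCA, of AP-1, lay at 9 summits, beside 8 and 7. CACGTG, of Myc and Max, lay at 2, beside 5 and 5, and TTTATGG, of Abd-B, at 14, beside 10 and 26. TATCGATA, of Dref, lay at 1 and in no flank, and GTGGGAA, of Su(H), at 2, beside 5 and 4. ACCGGTT, of Grainyhead, lay at 3 and in no flank, and GGTCACAC, of M1BP, at 2, beside 1 and 1.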

How the data were processed

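ChIP-seq of Sox102F-GFP in whole white prepupae gave 2 libraries, biological replicates 1 and 4. The authors deposited peak lists with a signal value per peak and the offset of its summit, another value used here. The optimal list is named as thresholded by IDR. What aligner, peak caller, control and threshold value made the lists is not given in the sources used here. Read counts were not part of the files used, so depth is unknown, and the Wilson intervals cover regions, which are not replicates. Signals ranked peaks within a list only. The replicate value of a summit is the strongest entry within 100 bp in that replicate's full list. Equally long tops of both replicate lists gave the spread. The dm3 lists were not used.

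Positions are dm6, counted from 1, and genes are from Ensembl release 115 on assembly BDGP6.54. Sequence came from the release 6 genome. Eligible sequence is all sequence that meets the same position rule. Words were counted on both strands. Scripts used Python 3.11.15 with pandas 2.3.3, numpy 2.4.6, scipy 1.17.1 and matplotlib 3.10.9, and the functions were tested on simulated data. With 1 group there was no comparison between conditions and no test.

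Regions named are the 20 strongest, the 5 farthest from a start, the 5 on either side of the limit and the 5 fullest stretches; genes named are the 4 per list with the strongest summit, and hth and en were named after their counts were seen. The 26 gene lists, the words and the class itself were chosen with earlier results of these data known. The annotation lacked 21 of the listed symbols, and these were left out of the main counts. Alternatives covered the list, the replicate, the annotation, the distance, closely spaced summits, word windows and the distance that counts as shared. The denominator without transposable elements and the match of those symbols to current ones were chosen after seeing the data.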

Additional observations from a re-analysis of the deposited data

How the results depend on the processing

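The share of distal intergenic summits with AACAAT stayed between 10.3% and 13.2% under other lists, annotations and distances. Windows of 25 and 100 bp gave 7.05% and 21.1%, ACAAT 25.9% and AACAATG 2.50%. Without 1 replicate, the number of summits ran from 401 to 455, density from 19.9 to 22.6 per Mb, median signal from 62.4 to 65.7, median distance from 8286 to 8371 bp, the share with AACAAT from 11.4% to 13.2% and flanking genes from 345 to 352. Signals of single replicates are on their own lists' scale. With protein-coding genes alone there were 785 summits, 30.2 per Mb, a median signal of 125.8 and a median distance of 10842 bp. Over 10000 bp from a start there were 146 summits, 11.3 per Mb, a median signal of 109.7, a median distance of 14037.5 bp and 128 flanking genes. Over 3000 bp there were 671 summits, 26.4 per Mb, a median signal of 124.8 and a median distance of 6384 bp. These follow from the wider or narrower rule. The stronger 50% of the list had 187 summits, 9.30 per Mb, a median signal of 207.02, a median distance of 8207 bp, 206 flanking genes and 96.8% found in both replicates. That share was 51.4% within 50 bp, 73.4% within 200 bp and 93.4% in the full replicate lists. Leaving out transposable elements and unknown bases gave 25.8 per Mb. Keeping 1 summit per 500 bp, or 1 start per gene, moved no count, distance or AACAAT share that was run beyond the spread between replicates. The median signal with 1 summit per 500 bp was 124, beside 122 as reported. The replicates give no spread on that scale. Current symbols raised the flanking genes of the Notch list from 2 to 3, of the homeobox list from 4 to 5 and of the nuclear receptor list from 5 to 6, and changed this count for no other list matched. No paired analysis was possible because there is 1 group. With no read counts, depth sets an unknown limit on weak summits, and 2 replicates limit every spread.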

Other observations

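Words of 6 letters were also counted around the 440 distal intergenic summits, on both strands within 50 bp, beside the windows 500 bp to each side. Of 2080 words, each with its reverse complement, 181 lay at 10% or more of the summits, and the 5 with the highest ratio of summit to flank counts are given here, so they were chosen after their values were seen and carry no test. TAAGAA lay at 73 summits (16.6%), beside 19 and 17 in the flanks. In replicate 1 it lay at 61 of 401, beside 22 and 23, and in replicate 4 at 71 of 455, beside 17 and 21. It lay in 7.19% of windows over eligible sequence and at 10.6% of all optimal summits.

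AGAATA lay at 49 (flanks 12 and 9), CTTATA at 47 (13 and 11), TCTAAA at 54 (21 and 12) and AAGTAT at 57 (19 and 16). In both replicates each was above either flank, with ratios from 2.33 to 5.22. All 5 are A+T-rich, as the summit windows are, and the part of base composition in these counts was not tested. The replicates share most of their summits, so they are not separate evidence for a word. None of the 5 contains the Sox core ACAAT.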
